A study of Mus musculus with 24 samples.

Results

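RNA-seq values of transgenic mouse liver libraries of class 8 were compared with those of class 2. The members were chosen by their titles alone, as the 4 libraries titled TGA with the suffix 8 and the 4 titled TGA with the suffix 2, so the comparison uses 8 of the 24 libraries of the series. All 8 are libraries of total RNA, isolated with a kit for fixed, paraffin-embedded tissue, from livers of C3H/HeJ mice labelled as transgenic, and WT libraries carry the same strain label. Neither the transgene nor the age of the mice is named in the labels. The other 16 libraries are the transgenic class 4 and the wild-type (WT) classes 2, 4 and 8, with 4 libraries in each group. The labels do not say what class 2, 4 or 8 stands for, and a reading as hepatocyte ploidy, the number of chromosome sets in a liver cell, rests on the series title only. They also do not say whether libraries with the same number came from 1 mouse, or whether the 4 libraries of a group came from separate mice. The p-values below therefore reflect no more than library-to-library spread, part of which may be technical.

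Hepatocytes, the main cells of the liver, become polyploid as the organ matures, mostly by entering mitosis without finishing cytokinesis. Polyploid and diploid hepatocytes share the same tasks: they secrete plasma proteins such as albumin, apolipoproteins and protease inhibitors, detoxify ammonia in the urea cycle, and make and burn fatty acids. Extra chromosome sets have been studied as spare copies of tumour suppressor genes and as a limit on proliferation in the diseased liver.

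The deposited values were read as the natural log of a quantile-normalised read count plus 1 and are given here as log2(normalised count + 1). A value of 0 was read as no counted read, which is no evidence of a silent gene. The number of genes above 0 was 2110, 2860, 9096 and 2717 in the class 8 libraries (numbers 1 to 4) and 2816, 3810, 4847 and 6468 in the class 2 libraries. Class 8 number 3 had the most genes of the 8 libraries, and each of the other 3 class 8 libraries had fewer than 3 of the 4 class 2 libraries. The class means were 4196 ± 3283 genes in class 8 and 4485 ± 1560 genes in class 2 (SD, n = 4 each; two-sided exact permutation p = 0.857). Without number 3 the class 8 mean was 2562 ± 398 genes (SD, n = 3; two-sided exact permutation p = 0.0857), where the smallest p this design allows is 0.0571, against 0.0286 for 4 against 4 libraries. Among the 4875 genes that passed the filter on low values (a deposited natural log value of at least 1 in at least 4 of the 24 libraries), 10638 of 19500 values (54.55%) were 0 in class 8 and 8762 of 19500 (44.93%) in class 2. Without number 3, 61.21% of the class 8 values were 0. The part that this larger share of zeros in class 8 has in each result was not tested. Genes that every cell uses were among those at 0: Gapdh, a glycolytic enzyme, was at 0 in every class 8 library and in 2 of 4 class 2 libraries, and Actb, the cytoskeletal beta-actin, in 1 of 4 in each class.

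**Figure D1:**
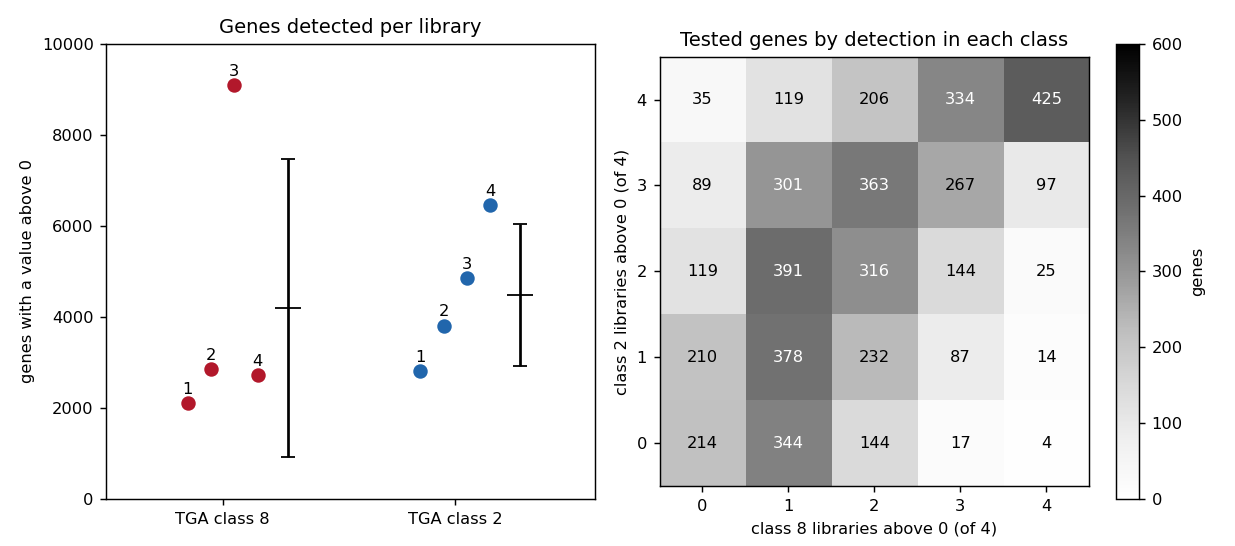
Left, genes with a value above 0 in each TGA library, with the library number above each point and the mean ± SD beside it. Class 8 number 3 has 9096 genes and the other class 8 libraries have 2110 to 2860, against 2816 to 6468 in class 2. Right, the 4875 tested genes by the number of class 8 libraries (horizontal) and class 2 libraries (vertical) in which they were above 0: 35 genes are above 0 in all 4 class 2 and no class 8 library, and 4 genes in all 4 class 8 and no class 2 library.

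Class 8 number 3 also differed in its most abundant transcripts. Fah, the last enzyme of tyrosine breakdown, was the most abundant gene of that library and had 10.95, 11.21, 16.41 and 8.34 in class 8 numbers 1 to 4, against 13.27, 11.05, 8.86 and 10.26 in class 2. Apoa1, which makes up most of the protein of high-density lipoprotein particles, had 13.71, 13.71, 10.19 and 14.40 in class 8 and 14.40, 14.40, 13.27 and 14.40 in class 2. Number 3 was the lowest of the 8 libraries for Apoa1. Of its genes, 5266 lay above 0 and below a log2 value of 1, against 147 to 200 genes in the other class 8 libraries and 203 to 2334 genes in the class 2 libraries. Counts over all genes and the counts and medians of gene lists are therefore given with and without this library.

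The libraries carried hepatocyte transcripts, as labelled. Of 32 hepatocyte identity genes, 31 are in the table and 29 were tested. The summed normalised counts of the 31 ran from 3191 (number 3) to 30830 in class 8 (median 21610) and from 26530 to 36820 in class 2 (median 32550). In the 29 tested genes, zeros made up 31.03% of class 8 values (33.33% without number 3) and 9.483% of class 2 values. In bulk RNA, fewer cells of a type and less RNA per cell cannot be told apart. Markers of other liver cells were mostly at 0 in both classes, and their part in the results was not tested. Of the macrophage and Kupffer cell list, 12 of 17 genes were at 0 in all 4 class 8 libraries (summed normalised counts 0 to 4.54, and 0 without number 3) and 16 of 17 in all 4 class 2 libraries (0 to 9.66), Adgre1 and Marco among them in both. Clec4f, Lyz2, C1qb, C1qc and Cybb were above 0 in class 8, in number 3 only, and Tyrobp in class 2. Of the endothelial list, 12 of 20 genes were at 0 throughout in each class, Pecam1 among them, with sums of 0 to 109.6 in class 8 and 5.83 to 75.3 in class 2. Stab2, Oit3 and Bmp2 were above 0 in both classes. Tek, Lyve1, Gpr182, Dnase1l3 and Vwf were so in class 8 only, and Cdh5, Kdr, Flt1, Stab1 and Ptprb in class 2 only. Stellate cell and fibroblast genes were at 0 throughout for 10 of 16 in class 8 (sums 0 to 114.4, the highest in number 3) and 13 of 16 in class 2 (0 to 15.6), with Col1a1 and Acta2 at 0 in both. Des, Col1a2, Reln, Lum, Timp1 and Ecm1 were above 0 in class 8, and Reln, Rgs5 and Hand2 in class 2. For cholangiocytes 7 of 11 genes were at 0 throughout in class 8 (sums 0 to 15.4) and 6 of 11 in class 2 (0 to 13.03). Of 13 lymphocyte genes, 9 were at 0 throughout in class 8 (sums 0 to 22.1, and 0 without number 3) and 12 in class 2 (0 to 11.5), Cd3e among them in both. Ptprc, Cd8a and Cd79b were among those above 0 in class 8, in number 3 only. Of 10 neutrophil genes, 8 were at 0 throughout in class 8 (sums 0 to 1.28, and 0 without number 3) and 9 in class 2 (0 to 7.58), S100a8 and Ly6g among them in both. Mpo and Ngp were above 0 in class 8, in number 3 only, and Csf3r in class 2. Of 8 erythroid genes, 7 were at 0 throughout in class 8 (sums 0 to 2.40, and 0 without number 3) and 8 in class 2, all globin genes of the list included. Anln, which encodes the cytokinesis protein anillin, was at 0 in all 8 libraries.

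Genes of liver metabolism and secretion were among those with the smallest p and lower class 8 values, and no gene passed the test. With limma on all 24 libraries, 0 of 4875 genes (0%) had an adjusted p under 0.05 in either direction, and the smallest adjusted p was 0.137. Without adjustment, p was under 0.05 for 60 genes (1.23%) with higher and 288 genes (5.91%) with lower class 8 values. After each library was centred on its mean over the tested genes these counts were 102 higher and 209 lower, so the share of higher genes among them was 32.8% in place of 17.24%. The median difference over all tested genes was -0.10 on the log2 scale, and 0.20 after centring. Without class 8 number 3, 0 genes passed (limma, smallest adjusted p = 0.218), and 65 higher and 223 lower genes had an unadjusted p under 0.05. The 8 libraries do not overlap for 18 genes (0.369%) that were higher in class 8 and for 125 genes (2.56%) that were lower. Without class 8 number 3, these were 87 genes (1.78%) higher and 163 genes (3.34%) lower.

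**Figure D2:**
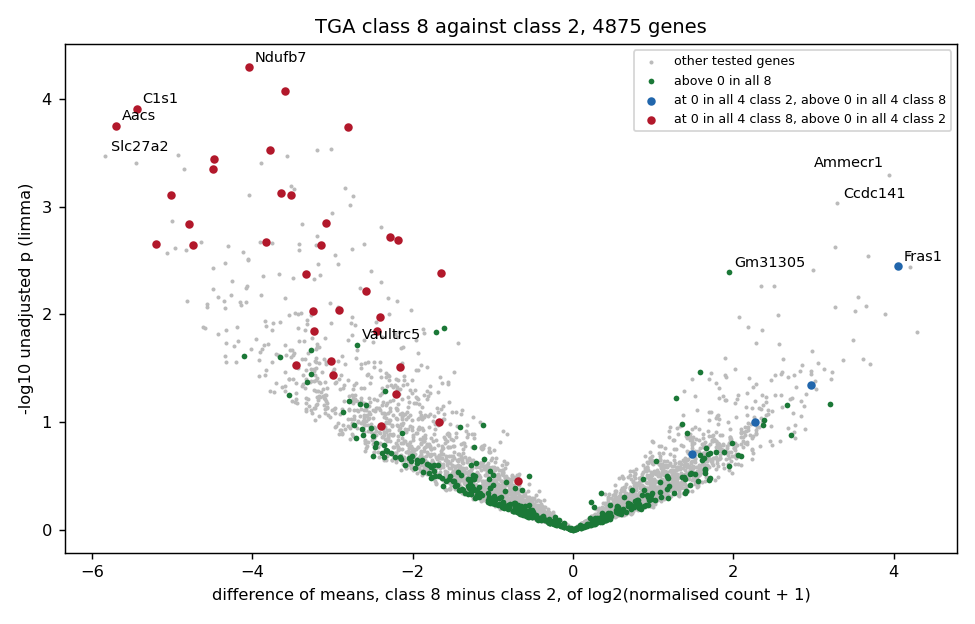
Each point is 1 of 4875 tested genes: the difference of means of log2(normalised count + 1), class 8 minus class 2 in TGA (horizontal), against -log10 of the unadjusted limma p (vertical). Red points are the 35 genes at 0 in all 4 class 8 and above 0 in all 4 class 2 libraries, blue the 4 with the reverse pattern and green the 425 above 0 in all 8 libraries. The smallest p-values belong to genes with values of 0 in class 8.

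Leaving out a class 2 library gave calls, all of them lower in class 8. Without class 2 number 1, 9 genes passed (limma, smallest adjusted p = 0.0360): Cyp2c68, Ephx2, Fkbp15, Lrrc3, Ndufb7, Rarres2, Rbm47, Trib3 and Ttc1, of which 7 were at 0 in that library. Without number 2, Acadvl passed alone (adjusted p = 0.0286, limma), and it too was at 0 in the library left out. Without number 3, Ndufb7, Pbld1 and Utp6 passed (smallest adjusted p = 0.0150, limma). That library held the lowest class 2 value of each of them, 1.74, 1.15 and 0. Without number 4, Lrrc3 and Strap passed (smallest adjusted p = 0.0433, limma), and number 4 held their lowest class 2 values, 1.94 and 0.82. Ndufb7 and Lrrc3 were each called under 2 of these 4 settings and no other gene under more than 1. Those of these genes that are not among the leading genes described below were named after their values were seen.

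A recurring pattern was detection in every class 2 library with 0 in every class 8 library. Among the tested genes, 35 (0.718%) had no read in any class 8 library and reads in every class 2 library, and 4 genes (0.0821%) showed the reverse. A gene can pass the filter on low values through the class that holds it, so this number is a description and not a test. Without number 3 the first count was 101 and the second 5. In that library the 66 added genes had a median log2 value of 0.89 (0.11 to 7.77), against a median of 3.11 over their class 2 values, and 38 of them lay below every class 2 library.

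The 15 genes with the smallest p among those lower in class 8 all had a limma adjusted p of 0.137, and of 0.218 to 0.221 without class 8 number 3. They held 7 values above 0 of 60 in class 8 and 58 of 60 in class 2, and the classes did not overlap for 13 of them. Of these genes, 12 were also at 0 in all 4 TGA class 4 libraries, against 26.6% of all tested genes, and 11 in all 4 WT class 8 libraries, against 25.3%. Those values enter the spread that the fit pools over the 6 groups. Genes of this kind can pass the filter on low values through class 2 alone, so both contrasts are a description and not a test. Among the 15 leading genes higher in class 8, described below, 13 were at 0 in all 4 TGA class 4 libraries and 8 in all 4 WT class 8 libraries. Such zeros were thus not particular to the lower genes.

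Several of the 15 belong to mitochondrial energy and lipid metabolism. Ndufb7, a subunit of respiratory complex I, was at 0 in all 4 libraries in class 8 and 4.48, 4.34, 1.74 and 5.60 in class 2. Aacs, which activates the ketone body acetoacetate for lipid synthesis, was at 0 in all 4 libraries in class 8 and 5.46, 4.95, 6.83 and 5.55 in class 2. Both genes were thus detected in each class 2 library and in no class 8 library. Slc27a2, the very-long-chain acyl-CoA synthetase that loads fatty acids for oxidation, had 0, 3.37, 1.61 and 0 in class 8 and 7.40, 6.64, 7.20 and 7.07 in class 2. Its classes did not overlap, and its class 2 values spanned less than 1 log2 unit. Acadvl, the first dehydrogenase of very-long-chain fatty acid oxidation, had 0, 0, 0.48 and 0 in class 8 and 4.33, 0, 5.64 and 6.09 in class 2. Sord, which turns sorbitol into fructose, was at 0 in all 4 libraries in class 8 and 3.71, 4.34, 5.32 and 1.77 in class 2.

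Secreted defence proteins were also among them. C1s1, a protease that starts the classical complement cascade, was at 0 in all 4 libraries in class 8 and 6.72, 5.53, 3.68 and 5.81 in class 2. Serpina1d, one of the mouse alpha-1-antitrypsin paralogs, had 0, 0, 0.41 and 0 in class 8 and 3.30, 6.27, 6.39 and 6.25 in class 2. The Serpina1 genes are nearly identical, and how the authors' counting split their reads is not given, so the value of a single paralog is uncertain.

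The other leading genes serve general cell functions. Smarcd2, a subunit of the SWI/SNF chromatin remodeller, was at 0 in all 4 libraries in class 8 and 5.75, 5.26, 3.58 and 3.35 in class 2, and Fam50a, a nuclear protein, at 0 in all 4 libraries in class 8 and 4.93, 5.14, 4.04 and 3.79 in class 2. Hip1r, which links clathrin to actin, had 0, 0, 0.27 and 0 in class 8 and 4.48, 5.69, 6.30 and 3.52 in class 2. Utp6, of ribosome small-subunit assembly, was at 0 in all 4 libraries in class 8 and 6.45, 3.78, 0 and 4.05 in class 2. Its classes overlapped at 0, as did those of Acadvl. Strap, an adaptor of TGF-beta receptor signalling, had 0, 0, 0.48 and 0 in class 8 and 4.01, 3.72, 4.69 and 0.82 in class 2. Serf2, Lrrc3 and Pbld1 had the same form: Lrrc3 and Pbld1 were at 0 in all 4 class 8 libraries and Serf2 in 3 of 4, against 1.94 to 5.14 for Lrrc3, 1.15 to 4.16 for Pbld1 and 2.18 to 5.03 for Serf2 in class 2.

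Further genes at 0 throughout class 8 had high class 2 values. Fam21, of the endosomal WASH complex, had 4.72, 4.97, 4.30 and 6.08 in class 2 (limma adjusted p = 0.154), and Usp4, a deubiquitinating enzyme, 5.30, 2.10, 5.19 and 6.56. Arfgap2, which acts in Golgi vesicle traffic, had 3.70, 4.34, 5.90 and 6.87 in class 2, and Sec16b, of endoplasmic reticulum exit sites, 1.53, 6.56, 5.08 and 5.78 (limma adjusted p = 0.238 for both). Arfgap2 was above 0 in 4 of 4 TGA class 4 libraries, at 4.05 to 6.69. Among all 35 such genes, 32 (91.4%) were at 0 in at least 3 of 4 TGA class 4 libraries, against 63.9% of all tested genes. Such a gene can pass the filter on low values through class 2 alone, which shapes this contrast. The share is therefore a description and not a test.

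The 15 genes with the smallest p among those higher in class 8 had limma adjusted p-values of 0.145 to 0.428, and of 0.218 to 0.716 without class 8 number 3. They held 52 of 60 values above 0 in class 8 and 15 of 60 in class 2, and the classes did not overlap for 4 of them. Ammecr1 had the smallest p, with 6.08, 0, 5.73 and 3.97 in class 8 and 0 in all 4 libraries in class 2. Ccdc141 had 4.82, 3.81, 2.31 and 2.37 in class 8 and 0, 0, 0.12 and 0 in class 2, and its classes did not overlap. Its limma adjusted p was 0.173, and 0.218 without class 8 number 3.

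Nrbp1, a pseudokinase, had 6.27, 5.03, 1.77 and 0 in class 8 and 0 in all 4 libraries in class 2, and Yes1, a Src-family tyrosine kinase, 3.86, 2.70, 0.85 and 3.37 in class 8 and 0, 1.42, 0 and 0 in class 2. Rictor, the defining subunit of the mTORC2 kinase complex, had 0, 5.87, 5.87 and 3.23 in class 8 and 0, 0, 1.88 and 0 in class 2. Ppp2r5e, a regulatory subunit of protein phosphatase PP2A, had 0, 3.51, 7.38 and 4.83 in class 8 and 0, 0, 0 and 0.99 in class 2. All of these overlapped between the classes. Vps26b, of the retromer that recycles endosomal cargo, had 0, 4.94, 0.66 and 6.37 in class 8 and 0 in all 4 libraries in class 2.

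Aldh16a1, an aldehyde dehydrogenase family member, had 6.58, 4.94, 0.59 and 5.71 in class 8 and 0, 0, 0 and 1.1 in class 2, where number 3 was the lowest class 8 library. Adamts7, a secreted metalloprotease, had 5.13, 4.99, 4.94 and 4.28 in class 8 and 0, 0, 1.82 and 0.69 in class 2. Fbxl17, a substrate receptor of a ubiquitin ligase, had 4.67, 4.69, 4.09 and 3.03 in class 8 and 0, 0, 1.16 and 1.25 in class 2, and like Adamts7 it did not overlap between the classes. S100a1, a calcium-binding protein, had 0, 6.43, 3.85 and 7.37 in class 8 and 0, 0, 1.32 and 1.72 in class 2. Tm9sf1 and Qser1 were at 0 in all 4 class 2 libraries and in 1 class 8 library each. The remaining 2 of the 15 genes, Fras1 and Gm31305, are described with their groups below.

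The 4 genes above 0 in all class 8 and at 0 in all class 2 libraries were Fras1, Zmat3, Gm41516 and Nrp1. Fras1, an extracellular matrix protein of basement membranes, had 3.86, 1.85, 7.74 and 2.78 in class 8, with its highest value in number 3. Zmat3, an RNA-binding p53 target, had 3.86, 2.08, 2.10 and 3.82, Nrp1, a co-receptor for semaphorins and VEGF, 1.64, 2.69, 1.04 and 0.57, and Gm41516, a predicted gene, 4.31, 2.08, 0.41 and 2.29 in class 8. Zmat3 and Nrp1 were above 0 in 4 of 4 libraries of WT class 8 and in 4 of 4 of WT class 2.

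**Figure D3:**
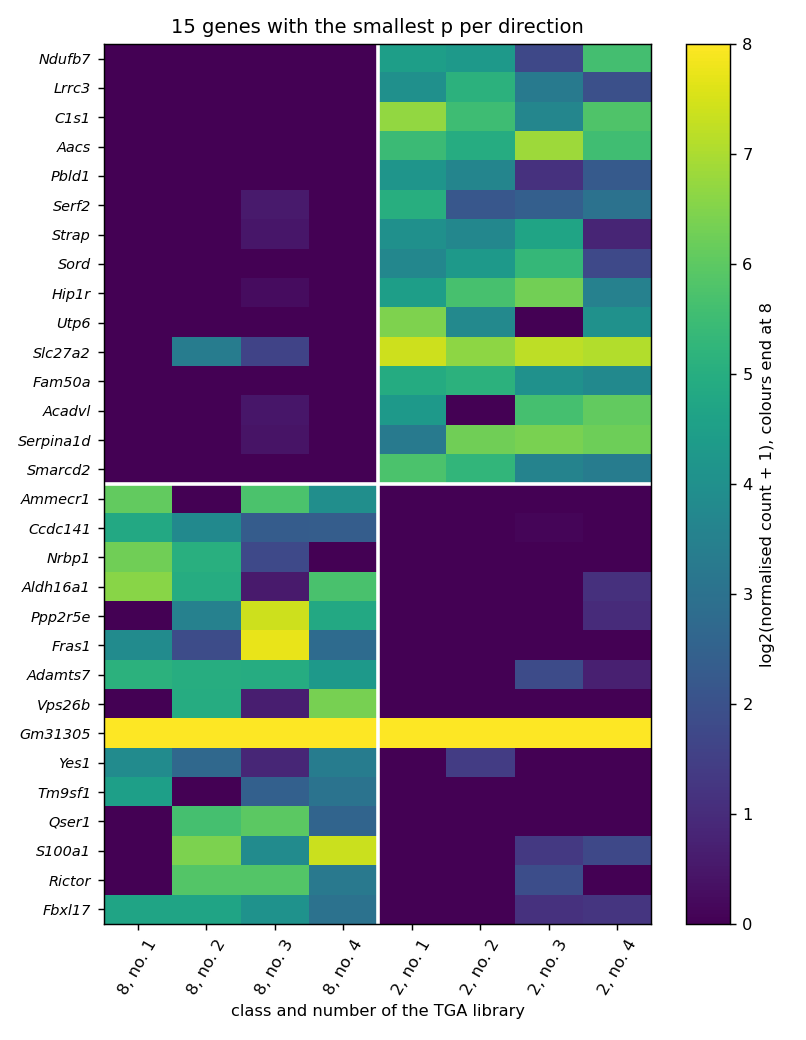
log2(normalised count + 1) in the 8 TGA libraries for the 15 genes with the smallest limma p among those lower in class 8 (upper block) and the 15 among those higher (lower block). The darkest cells are values of 0, and the colour scale ends at 8. The upper block holds 7 values above 0 of 60 in class 8 and 58 of 60 in class 2, and the lower block 52 of 60 in class 8 and 15 of 60 in class 2.

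The promoters of the leading genes are shown because these genes are the closest to a call in each direction. The deposited table was made on another build, mm9, so the promoters were matched by gene symbol to RefSeq sequences of the build GRCm38.p6. They run from 250 bases before to 50 bases after the gene start and written 5′ to 3′ along the gene. The genes are the 3 with the smallest p among those lower in class 8, and the 1 among those higher, that have a single promoter entry in the RefSeq table. They lie at chr8:83566508-83566807 (plus strand, Ndufb7), chr10:77902487-77902786 (minus strand, Lrrc3), chr5:125475623-125475922 (plus strand, Aacs) and chrX:142966677-142966976 (minus strand, Ammecr1). Capitals mark every match, on either strand, to the GC box GGGCGG, the CCAAT box, the nuclear receptor half-site AGGTCA or the E-box CACGTG. No matches overlap in the sequences shown.
Ndufb7: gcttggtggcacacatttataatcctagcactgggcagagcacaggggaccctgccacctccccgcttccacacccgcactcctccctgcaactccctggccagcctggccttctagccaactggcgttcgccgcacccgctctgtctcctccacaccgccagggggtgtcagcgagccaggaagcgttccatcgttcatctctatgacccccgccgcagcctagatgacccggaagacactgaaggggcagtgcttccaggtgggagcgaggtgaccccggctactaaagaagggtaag
Lrrc3: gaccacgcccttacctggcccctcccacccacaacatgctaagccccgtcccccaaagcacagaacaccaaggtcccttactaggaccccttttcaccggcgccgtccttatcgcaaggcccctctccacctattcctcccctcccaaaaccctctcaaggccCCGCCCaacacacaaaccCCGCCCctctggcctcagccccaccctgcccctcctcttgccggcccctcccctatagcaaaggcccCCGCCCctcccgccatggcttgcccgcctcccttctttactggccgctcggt
Aacs: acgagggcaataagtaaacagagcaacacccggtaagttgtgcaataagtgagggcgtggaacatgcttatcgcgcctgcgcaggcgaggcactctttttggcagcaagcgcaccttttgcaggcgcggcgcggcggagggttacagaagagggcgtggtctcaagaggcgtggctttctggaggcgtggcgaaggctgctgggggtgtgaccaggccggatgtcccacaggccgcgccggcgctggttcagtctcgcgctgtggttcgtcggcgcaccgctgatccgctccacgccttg
Ammecr1: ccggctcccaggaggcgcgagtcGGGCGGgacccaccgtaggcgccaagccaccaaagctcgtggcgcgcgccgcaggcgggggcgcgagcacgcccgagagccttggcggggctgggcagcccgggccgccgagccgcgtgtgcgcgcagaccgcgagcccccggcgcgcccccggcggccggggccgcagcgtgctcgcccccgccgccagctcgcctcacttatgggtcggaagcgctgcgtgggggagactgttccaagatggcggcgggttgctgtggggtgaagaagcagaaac
The Lrrc3 promoter held 3 GC boxes and the Ammecr1 promoter 1, and none of the 4 promoters held another of the motifs. The GC content was 62.7% for Ndufb7, 65.7% for Lrrc3, 63.3% for Aacs and 76.7% for Ammecr1, against a median of 52.7% over the 32851 promoters of the table. No such median was taken over the tested genes alone, so the 4 values cannot be set against theirs. A GC box was found in 35.7% of all promoters, CCAAT in 37.4%, AGGTCA in 16.3% and CACGTG in 7.15%. Of the 35 genes at 0 in class 8 and above 0 in class 2, 27 had a promoter entry. A GC box was found in 13 of the 27, against 66.8% of the 3597 tested genes with an entry, and CCAAT in 12 of 27 against 41.4%. AGGTCA was found in 4 of 27, against 15.9%, and CACGTG in 4 of 27, against 11.4%. A match is a description of the sequence and not a bound site.

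The genes above 0 in all 8 libraries, 425 of 4875 (8.72%), allow a comparison without values of 0. Their median log2 value was 6.06, 6.16, 4.54 and 6.38 in class 8 numbers 1 to 4 and 6.18, 6.23, 6.49 and 6.61 in class 2. The median of their differences, class 8 minus class 2, was -0.35 on the log2 scale, with 257 genes lower and 168 higher. Without class 8 number 3, 213 of the same 425 genes were lower and 212 higher. The surplus of lower genes was thus almost absent without this library. Over the larger set of genes above 0 in all libraries kept when number 3 was left out, the median was 0.06. The classes did not overlap for 16 of the 425 genes (3.76%) that were lower and 6 (1.41%) that were higher in class 8.

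A pair of RNAs made by RNA polymerase III were among the 10 leading genes that were lower. Rn7sk, the 7SK RNA that holds the elongation factor P-TEFb inactive, had 6.84, 7.64, 7.80 and 7.99 in class 8 and 8.64, 12.08, 11.73 and 11.10 in class 2, a difference of -3.32 (SE 1.59, limma adjusted p = 0.675). Vaultrc5, the RNA of the vault particle, had 7.54, 8.47, 7.43 and 6.91 in class 8 and 8.54, 10.81, 11.58 and 10.19 in class 2, a difference of -2.69 (SE 1.11, limma adjusted p = 0.550). Every class 8 library lay below every class 2 library for both RNAs, and without number 3 the differences were -3.40 and -2.64. Over the list of small structural and vault RNAs, 9 of 11 tested genes were lower and 2 higher, with a median difference of -0.55 (7 lower, 4 higher and -0.73 without number 3), and 0 passed the test.

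Lipid handling genes were also among them. Apoe, the apolipoprotein that clears lipoprotein remnants, had 11.95, 12.89, 10.05 and 12.89 in class 8 and 12.65, 13.90, 14.15 and 13.90 in class 2, a difference of -1.71 (SE 0.67, limma adjusted p = 0.495) that was -1.08 without number 3. Number 3 was the lowest library, and the classes overlapped. Scp2, a sterol and lipid carrier, had 4.31, 4.77, 1.32 and 7.38 in class 8 and 7.10, 7.65, 8.05 and 8.06 in class 2, which overlapped. Pcyt2, which makes the ethanolamine precursor of membrane lipids, had 5.56, 6.68, 0.50 and 2.29 in class 8 and 7.09, 7.44, 7.72 and 6.94 in class 2, with no overlap. Osbpl1a, an oxysterol-binding protein relative, had 5.94, 3.29, 0.06 and 0.34 in class 8 and 6.18, 6.89, 6.26 and 6.70 in class 2, also with no overlap.

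Pck1, the rate-limiting enzyme of gluconeogenesis, had 4.46, 8.51, 7.77 and 9.5 in class 8 and 8.56, 9.49, 10.82 and 10.73 in class 2. Slc25a25, a mitochondrial ATP-Mg/phosphate carrier, had 0.96, 6.85, 0.50 and 3.63 in class 8 and 4.72, 7.42, 7.77 and 6.65 in class 2. Both overlapped between the classes. Aars, the alanyl-tRNA synthetase, had 1.72, 1.78, 1.32 and 1.76 in class 8 and 6.56, 6.48, 3.75 and 2.84 in class 2. All class 8 values of Aars lay below all class 2 values. LOC101056014 had 15.54, 15.54, 10.87 and 15.54 in class 8 and 15.54, 16.41, 16.41 and 15.54 in class 2, and number 3 was its lowest library.

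Among the 10 leading genes of this kind that were higher in class 8, Gm31305, a predicted gene, had the smallest p. It had 11.58, 10.57, 9.44 and 11.21 in class 8 and 9.91, 8.04, 8.42 and 8.67 in class 2, a difference of 1.94 (SE 0.64, limma adjusted p = 0.290) that was 2.36 without number 3 (limma adjusted p = 0.218). Only class 8 number 3 lay below the highest class 2 library. Wnk2, a kinase of the WNK family, had 5.22, 5.92, 5.93 and 4.38 in class 8 and 4.09, 3.60, 1.54 and 1.54 in class 2, and Hsd17b11, a lipid-droplet dehydrogenase, 4.65, 2.50, 5.25 and 2.94 in class 8 and 2.48, 1.51, 1.1 and 0.79 in class 2. Both were without overlap.

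Spop, a substrate adaptor of the cullin 3 ubiquitin ligase, had 11.43, 10.82, 8.59 and 9.66 in class 8 and 9.96, 8.78, 7.80 and 8.83 in class 2. Sox12, a transcription factor, had 8.47, 7.09, 4.05 and 7.35 in class 8 and 6.36, 2.21, 2.26 and 3.29 in class 2, and Ier2, an immediate early gene, 10.91, 11.35, 9.0 and 10.60 in class 8 and 9.27, 8.23, 9.22 and 9.72 in class 2. For Spop, Sox12 and Ier2 number 3 was the lowest class 8 library. Rab5a, the small GTPase of early endosomes, had 6.03, 7.61, 6.59 and 7.70 in class 8 and 5.61, 6.70, 4.14 and 1.94 in class 2. The limma adjusted p-values of these 4 genes ran from 0.732 for Spop to 0.831 for Ier2. 0610038B21Rik, Rorb and Dip2c complete the 10 genes, and each of them overlapped between the classes.

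**Figure D4:**
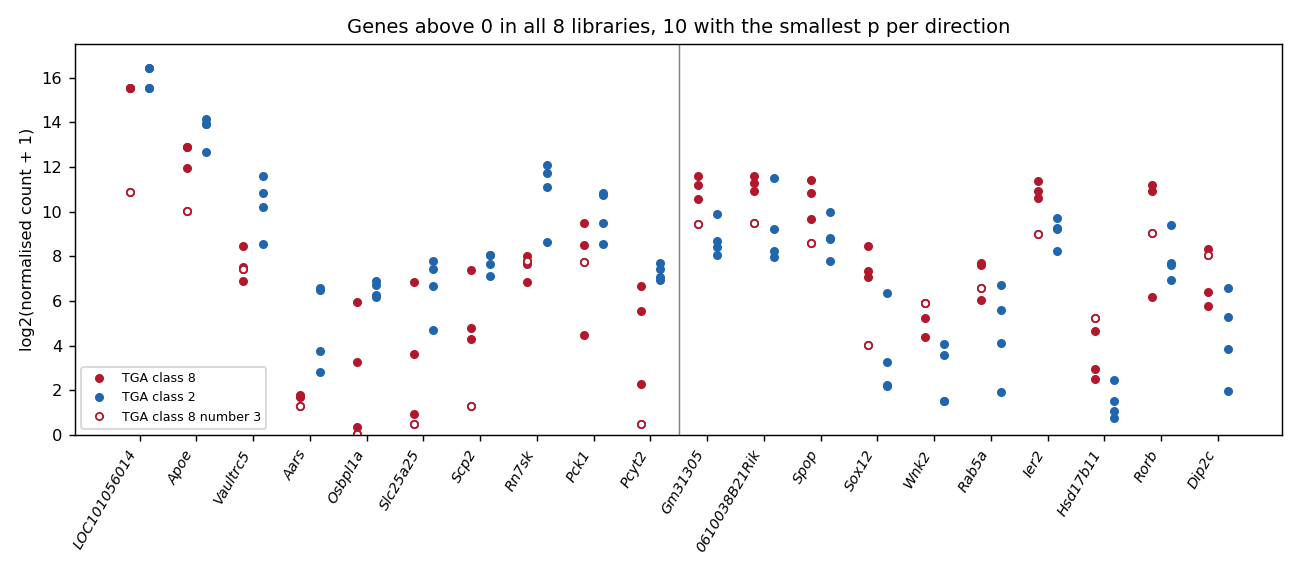
log2(normalised count + 1) of genes above 0 in all 8 TGA libraries, the 10 with the smallest limma p among those lower in class 8 (left of the line) and the 10 among those higher (right). Each point is a library, class 8 in red and class 2 in blue, and the open point is class 8 number 3. For Vaultrc5, Aars, Osbpl1a, Rn7sk and Pcyt2 all class 8 points lie below all class 2 points, and for Wnk2 and Hsd17b11 all lie above.

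The gene lists of hepatocyte function had mostly lower class 8 means in TGA, and 0 of their members passed the test. Most of these lists were mostly lower in WT class 8 too, as given below. In TGA, over all tested genes, 2568 (52.68%) were lower, 2093 higher and 214 equal at 0. Of 29 tested hepatocyte identity genes, 27 were lower and 2 higher, with a median difference of -1.66 on the log2 scale. Without number 3, 26 were lower and 3 higher (median -1.34), and over all tested genes 2568 were lower and 1885 higher. Apoa2, a protein of high-density lipoprotein, had 0, 0, 0 and 0.99 in class 8 and 5.21, 5.38, 3.66 and 4.72 in class 2 (limma adjusted p = 0.280). Tat, which opens tyrosine breakdown, had 0, 0, 0.48 and 6.25 in class 8 and 3.65, 7.35, 6.94 and 7.22 in class 2, and Apob, the structural protein of very-low-density lipoprotein, 0, 4.44, 1.77 and 7.61 in class 8 and 7.47, 7.79, 8.13 and 7.76 in class 2. Alb, albumin, had 8.79, 8.54, 8.73 and 10.35 in class 8 and 9.36, 10.94, 11.05 and 10.94 in class 2. Apob, Tat and Alb overlapped between the classes, and Apoa2 did not. Class 8 libraries had 14, 20, 22 and 24 of the 29 genes above 0 and class 2 libraries 22, 26, 29 and 28.

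In the urea cycle and nitrogen list 9 of 9 tested genes had a lower class 8 mean, with a median difference of -2.32 (9 of 9 and -2.55 without number 3). Cps1, which brings ammonia into the cycle, had 8.56, 8.45, 8.19 and 10.17 in class 8 and 8.60, 9.5, 10.75 and 10.60 in class 2. Asl, argininosuccinate lyase, had 0, 1.24, 0.83 and 0 in class 8 and 2.12, 5.19, 6.38 and 5.61 in class 2, with no overlap (limma adjusted p = 0.238). Arg1, which releases urea, had 5.98, 5.64, 0.66 and 3.23 in class 8 and 4.93, 7.0, 7.21 and 6.84 in class 2. Nags, which makes the activator of Cps1, had 0, 0, 0.50 and 0 in class 8 and 3.57, 0, 4.54 and 3.79 in class 2, and Gls2, the liver glutaminase, 0, 0, 0.50 and 0 in class 8 and 0, 6.05, 4.14 and 3.90 in class 2. Of these 5 genes, 4 overlapped between the classes.

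All 10 tested serpins were lower, with a median difference of -2.81 (9 of 10 and -2.28 without number 3), and 14 of 15 tested complement genes were lower and 1 higher, with a median of -2.02 (14 lower and -1.49 without number 3). Serping1, the inhibitor of C1, had 0, 0, 0 and 2.91 in class 8 and 3.37, 2.60, 4.04 and 5.69 in class 2 (limma adjusted p = 0.238). Serpinf1, the secreted factor PEDF, had 0, 0, 0.59 and 0 in class 8 and 0, 5.87, 4.18 and 6.03 in class 2. C9, a component of the membrane attack complex, had 0, 0, 2.10 and 0 in class 8 and 0, 3.78, 5.73 and 6.62 in class 2. These 3 genes overlapped between the classes, and Serping1 is in both lists. Of 13 tested apolipoprotein and lipoprotein genes, 12 were lower and 1 higher (median -1.11, and 11 lower with a median of -1.08 without number 3). Coagulation genes were lower for 15 of 18 (median -1.49, and 12 of 18 with a median of -0.98 without number 3).

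For fatty acid activation and oxidation 17 of 21 tested genes were lower and 4 higher (median -1.86, and 17 lower with a median of -1.09 without number 3), and for synthesis and its regulators 16 of 19 were lower and 3 higher (median -1.51, and 15 lower with a median of -0.89 without number 3). Srebf1, the transcription factor that drives lipogenic genes, had 0, 7.05, 0.85 and 2.29 in class 8 and 7.07, 7.33, 6.40 and 6.73 in class 2. Fads1, a fatty acid desaturase, had 0, 1.31, 0 and 6.87 in class 8 and 4.69, 6.32, 6.02 and 5.30 in class 2. The classes overlapped for Srebf1 and Fads1. Of 17 tested cytochrome P450 genes, 14 were lower and 3 higher (median -1.52, and 13 lower with a median of -0.82 without number 3). Cyp8b1, which directs bile acid synthesis to cholic acid, had 0, 0, 2.62 and 0 in class 8 and 3.47, 6.21, 3.20 and 5.95 in class 2, with no overlap.

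Amino acid and folate catabolism (27 of 32 tested genes lower, median -1.55, and 26 with -1.26 without number 3), endoplasmic reticulum chaperones and the unfolded protein response (17 of 19, median -1.39, and 15 with -1.19 without number 3), bile acid genes (8 of 9, median -1.13, and 7 with -0.95 without number 3) and cytosolic ribosomal proteins (17 of 22, median -0.87, and 15 with -0.88 without number 3) were also mostly lower. After centring, the medians of the 13 lists from hepatocyte identity to ribosomal proteins ran from -2.51 for serpins to -0.57 for ribosomal proteins. Not all other liver lists fell in this range. Cholesterol synthesis and sterol sensing had 6 of 8 genes lower (4 of 8 without number 3) and a centred median of -0.006. Pericentral genes were lower for 9 of 14 (centred -0.39), conjugation and xenobiotic transport genes for 9 of 14 (-0.80) and male-biased liver genes for 9 of 10 (-1.77). Trib3, a pseudokinase induced by endoplasmic reticulum stress, had 0 in all 4 libraries in class 8 and 0, 5.14, 3.20 and 3.02 in class 2 (limma adjusted p = 0.154). Dnajb11, a chaperone partner of the endoplasmic reticulum, was at 0 in all 4 libraries in class 8 and 2.95, 1.51, 4.32 and 4.17 in class 2. These medians read values of 0 as levels, and in each of the lists named so far class 8 held the larger share of zeros: for complement 58.33% in class 8 and 16.67% in class 2, and for serpins 45.0% in class 8 and 7.5% in class 2.

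Of 11 immediate early and stress genes, 9 were lower and 2 higher (median -0.56, and 8 lower with a median of -0.37 without number 3). Histone genes, whose near-identical copies make single values uncertain, were lower for 5 of 5 (median -1.60, and 4 of 5 with the same median without number 3). A list of abundant transcripts, which was drawn from this table and is no independent evidence, went the other way with 9 of 12 higher (median 0.68, and 11 of 12 with a median of 1.02 without number 3). Mitochondrially encoded transcripts, with 7.143% of values at 0 in class 8 and 3.571% in class 2, were lower for 3 of 7 and higher for 4, with a median of 0.47. Without number 3, 5 were lower and 2 higher, with a median of -0.40. Tumour suppressor genes were lower for 7 of 17, higher for 9 and equal for 1, with a median of 0.03 (10 lower, 6 higher and -0.05 without number 3). Keap1, the adaptor that degrades the stress factor NRF2, had 5.59, 5.78, 3.41 and 4.31 in class 8 and 0, 1.77, 1.73 and 4.17 in class 2. Bap1, a nuclear deubiquitinase, had 0, 2.08, 0.80 and 0 in class 8 and 6.62, 0, 5.51 and 3.18 in class 2. Both overlapped between the classes. Proliferation could hardly be read: 2 of 29 genes of DNA replication and 3 of 24 of mitosis were tested. Incenp, of the chromosomal passenger complex that acts in mitosis and cytokinesis, had 0, 6.25, 5.61 and 3.72 in class 8 and 0, 0, 0 and 2.10 in class 2.

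**Figure D5:**
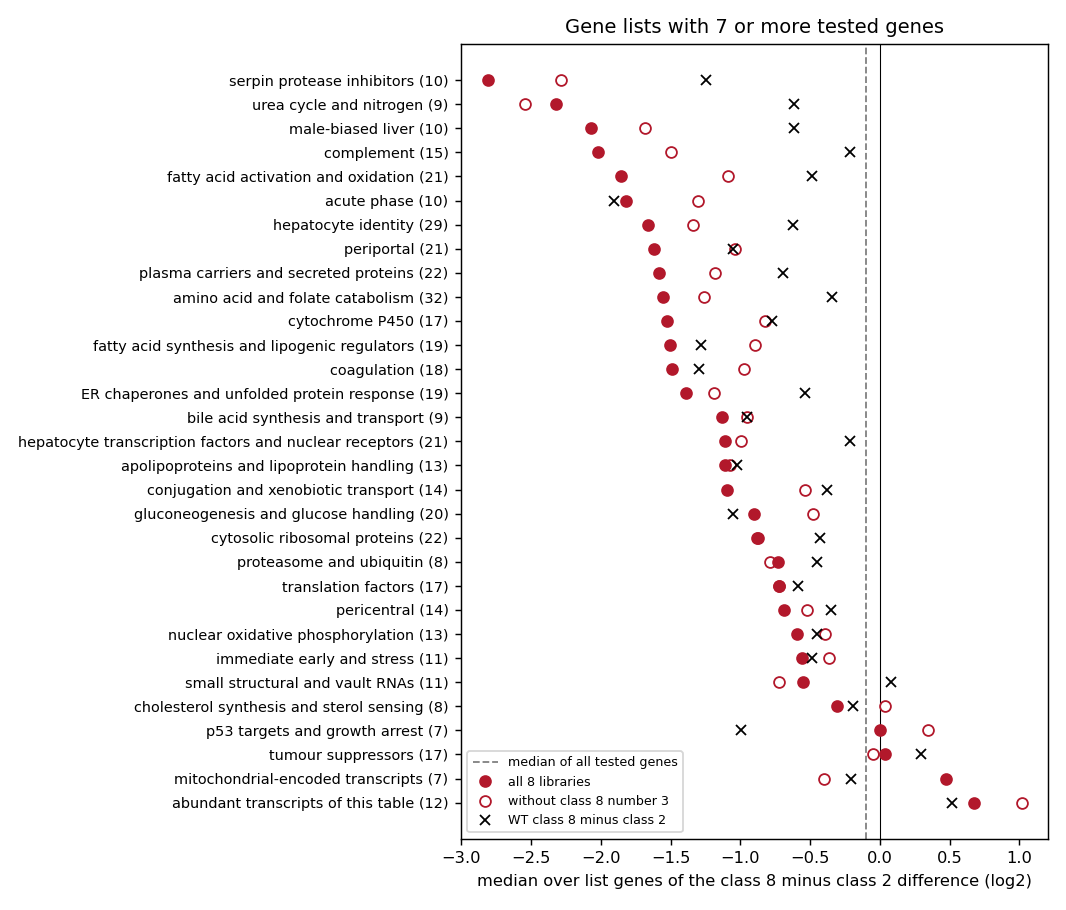
Median over the tested genes of each list (number in brackets) of the class 8 minus class 2 difference on the log2 scale: all 8 TGA libraries (filled red), without class 8 number 3 (open red) and in WT (crosses). The dashed line is the median of all tested genes, -0.10. The serpin, urea cycle and complement lists lie at -2.81, -2.32 and -2.02 in TGA, and the mitochondrially encoded list crosses 0 without number 3.

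The class difference of TGA was set against that of WT, whose 8 libraries are other ones. In WT, the same contrast had an unadjusted p under 0.05 for 105 genes (2.15%) with higher and 132 genes (2.71%) with lower class 8 values. The interaction called 0 of 4875 genes (limma, smallest adjusted p = 0.999), and 198 genes (4.06%) had an unadjusted p under 0.05 (211 without TGA class 8 number 3). Of the 4653 genes with a difference in both genotypes, 2569 (55.2%) had the same sign, and 49.3% did when the libraries with more than 7000 genes were left out. Lower WT class 8 means were found for 23 of 29 hepatocyte identity genes (median -0.62), 10 of 10 serpins (-1.24) and 12 of 13 apolipoprotein and lipoprotein genes (-1.02). The WT counts were 6 of 9 for the urea cycle list (-0.61) and 9 of 15 for complement (-0.22). Lower liver lists were thus not particular to TGA. In WT, 21 genes (0.431%) were at 0 in 4 of 4 class 8 and above 0 in 4 of 4 class 2 libraries, a share at which 35 genes would hold less than 1. Of the 35 genes with that pattern in TGA, 0 had it in WT, and 24 (68.6%) were lower in WT class 8, against 56.6% of all tested genes. Slc27a2 was at 0 in all 4 libraries in WT class 8 and 6.43, 5.60, 6.49 and 1.13 in WT class 2, and Asl at 0, 3.82, 0 and 0 in WT class 8 and 4.71, 6.78, 6.38 and 3.22 in WT class 2. Both genes thus had lower class 8 means in either genotype, but the WT classes of Asl overlapped (limma adjusted p = 0.796 in WT). They were picked after their values were seen.

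Aldh16a1, Sec14l2, C1s1 and Fbxl17 were among the 5 genes with the smallest p of the interaction, and each had an adjusted p of 0.999 by limma. Sec14l2, which binds tocopherol and other lipids, had 7.87, 7.18, 4.97 and 6.30 in TGA class 8 and 0, 6.87, 3.71 and 6.79 in TGA class 2, while in WT it was at 0 in all 4 libraries in class 8 and 6.83, 6.32, 4.53 and 6.98 in class 2. C1s1, at 0 in all 4 TGA class 8 libraries, was at 0, 5.15, 3.17 and 0 in WT class 8 and 4.19, 0, 0 and 0 in WT class 2.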

How the data were processed

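RNA-seq of 24 mouse liver libraries was used, 8 of them in the comparison. Per the labels' protocols, the libraries were sequenced as single-end reads of 75 bp. TopHat, edgeR and the build mm9 are named in the submitters' processing notes, with no version or setting given. The deposited table holds 1 value per gene and library. The unit is not stated and was read from the values themselves: they fit the natural log of a quantile-normalised count plus 1, since 20 of 24 libraries share the same highest value. Raw depth is therefore unknown, and neither counting intervals nor a count test could be had.

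The deposited natural log values were divided by ln 2. Genes that reached a deposited value of 1 in 4 or more libraries were tested (4875 of 35974). A model with 6 group means was fitted over 24 libraries with limma 3.58.1 (trend, R 4.3.3), with Benjamini-Hochberg adjustment over all tested genes and a threshold of 0.05. Differences are on the log2(value + 1) scale, which understates the change of low genes. No difference is given for genes at 0 in a class, and single values are given for genes with zeros. Genes above 0 were compared with exact permutation tests in Python 3.11.15. The procedure was tested on simulated data with normally distributed values and no floor at 0. That test therefore does not cover data with as many zeros as these. The comparison and the 46 gene lists were chosen with earlier results of these data known. The named genes are the 15 with the smallest p per direction, the 10 per direction and the 10 most abundant among genes above 0 in all 8 libraries, the 4 list members with the smallest p, the 5 for the interaction and up to 6 per direction among genes at 0 in a whole class, and a few fixed control genes and list members above 0 in all 8 libraries. This gives 252 genes, and those in the text were chosen from them after their values were seen. The alternatives covered the filter, the pseudocount, centring, detected genes as a covariate, the libraries fitted, the prior and each class 8 or class 2 library, TGA or WT, left out in turn. No label gives the meaning of the library numbers, so the main fit does not pair libraries by them. Deviations of the same-numbered libraries of the classes correlated at 0.0787, -0.0208, -0.0260 and 0.113. For class 8 numbers 1 and 4 the same-numbered class 2 library was the best match. With this many zeros, these values cannot show whether the libraries are paired. Some named genes are not reported here.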

Additional observations from a re-analysis of the deposited data

Results flagged for a closer look

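Within each class, a library was looked for that stood apart from the other 3, with a gap to the nearest of them that, as a share of the whole range, passed Dixon's critical value. The genes above 0 per library and the named genes with no 0 in the class were searched, 89 groups of 4 in all, and 11 met the criterion. For independent, normally distributed groups chosen without regard to their values, chance flags about 1 in 20. The genes searched were named after their values were seen, and values tied by the normalisation can meet the criterion. That rate therefore does not apply here, and the count of flagged groups is a description. Class 8 number 3 had 9096 genes above 0, against 2110 to 2860 in the other class 8 libraries. The same library was the lowest of its class for Apoa1 (10.19, against 13.71 to 14.40), LOC101056014 (10.87, against 15.54 in the other 3) and Aars (1.32, against 1.72 to 1.78). In class 8, Alb stood apart in number 4 (10.35, against 8.54 to 8.79). Class 2 number 1 was the lowest of its class for 5 liver genes. Its Alb was 9.36 (10.94 to 11.05 in the others), its Apoe 12.65 (13.90 to 14.15) and its Arg1 4.93 (6.84 to 7.21). Its Serpina1d was 3.30 (6.25 to 6.39) and its Tat 3.65 (6.94 to 7.35). Apoa1 stood apart in class 2 number 3 (13.27, against 14.40 in the other 3).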

How the results depend on the processing

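Under the other filters, pseudocounts, scalings, priors and fits, 0 genes were called, as in the fit reported. Leaving out 1 library gave 0 to 9 called genes, with 9, 1, 3 and 2 without TGA class 2 numbers 1 to 4 and 0 without each TGA class 8, WT class 8 or WT class 2 library. Class 4 libraries were not left out singly. With the library number as a replicate block, 0 genes were called (limma, smallest adjusted p = 0.166), and the unadjusted p was under 0.05 for 64 higher and 305 lower genes. The number of genes at 0 in all of class 8 and above 0 in all of class 2 was 43 to 101 with 1 library left out, and 9 with a filter of 8 libraries. The reverse number was 5 to 11 and 2 under the same settings, and the fewer samples or genes alone shift these counts. The difference in genes above 0 per library was -1923 to 406, and it turned positive without class 8 numbers 1, 2 and 4 (406, 156 and 203) and without class 2 number 4 (371). The median over genes above 0 in all 8 libraries was -0.35 in the fit reported, -0.046 after centring and -0.17 with a pseudocount of 10. The pooled SD of the library medians within the classes was 0.48. With 1 library left out the median was -0.56 to 0.064, and without the libraries over 7000 genes 0.070. Both were taken over the genes above 0 in the class 8 and class 2 libraries kept, which is another gene set. The share of genes with the same sign in WT was 54.3% to 56.3% with 1 of the 8 TGA libraries left out, and WT libraries were not left out for it. It was 59.2% under the stricter filter, 54.2% with a pseudocount of 10, 56.1% after centring, 50.4% with detected genes as a covariate and 49.3% without the libraries over 7000 genes. Centring turned the median of all tested genes (0.20), the fetal liver and liver cancer list (0.020) and Actb (0.17). Leaving out class 8 number 3 turned the medians of cholesterol synthesis (0.038), mitochondrially encoded transcripts (-0.40), tumour suppressors (-0.049) and housekeeping genes (-0.12), and brought mitosis to 0. It also turned the medians of the 2 tested DNA replication genes (-0.22) and of the 1 tested stellate cell gene (-0.24). With 1 library left out, Actb was -1.29 to 0.99, turned without number 2 of class 8 (0.99) or class 2 (0.82). Fah was -0.69 to 2.0, turned without class 8 number 3 and, at the same value, without the libraries over 7000 genes (-0.69). The cause of these turns was not tested. Of 1510 values of 82 named genes under 19 settings, 1494 kept their direction and their side of the threshold. No gene was called in the fit reported, so the side kept was that of genes not called. A gene at 0 in a whole class cannot turn when 1 library is left out. Part of this agreement was therefore fixed in advance, and the count is a description and not a test. The list counts and medians without class 8 number 3, the non-overlapping genes without it, the list medians after centring and the unadjusted counts under both were added after seeing the data. The raw depth is unknown, so its limits cannot be given.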
